A study of Mus musculus with 6 samples.

Results

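Hox genes encode homeodomain transcription factors that give cells of the embryo their position along the body axis, and many adult mesenchymal tissues keep a Hox pattern of the place where they formed. Mice carry them in 4 clusters, Hoxa, Hoxb, Hoxc and Hoxd, in which genes lie in the order of their paralog numbers. Low numbers are active towards the head and high numbers towards the tail and the distal limb, and genes with the same number in different clusters descend from one ancestral gene. Fat depots at different sites of the body differ in Hox expression, in mice as in humans.

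The genes taken were those whose platform symbol is Hoxa, Hoxb, Hoxc or Hoxd followed by a number, whatever their level. Of 18193 genes with a probe set of their own, 33 met this rule, namely 9 Hoxa, 9 Hoxb, 7 Hoxc and 8 Hoxd genes. Where a gene had several probe sets, the one with the highest mean level over the 6 arrays stood for it. Hoxb8 and Hoxd4 were represented only by probe sets shared with a neighbouring Hox gene, and Hox genes outside these were not analysed here.

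The tissue was white fat, which the labels place in the gonadal (epididymal) visceral pad, from male C57BL/6 mice aged 16 weeks that ate chow ad libitum. AFO mice carried FTO flox/flox alleles together with Adiponectin-cre, a recombinase driven by adiponectin regulatory sequence and active in fat cells, and control mice carried the FTO flox/flox alleles without it. The Fto protein is an RNA demethylase. Each genotype was measured on 3 Affymetrix arrays, each from its own RNA pool, and the number of mice in a pool is not given in the sources used here. Values are log2 expression levels of whole tissue, so the RNA comes from vessels, stroma and immune cells as well as the fat cells in which the Cre acts. In such samples fewer cells of a type and less RNA per cell cannot be told apart. With 3 arrays in each genotype, the number of arrays limits the precision.

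The arrays carry 2 features that touch the Hox values. Fto itself read 6.13, 5.45 and 5.95 in AFO pools 1, 2 and 3, against 6.11, 6.20 and 5.59 in control pools 1, 2 and 3, so the genotypes overlapped. Which exon is removed is not given in the labels, and the genotype therefore rests on the labels alone. The arrays labelled pool 2 stood apart in both genotypes. The median level of 10 mesothelial marker genes was 4.64 in AFO pool 2 and 5.24 in control pool 2, against 7.85 to 8.23 in the other 4 arrays. The median of 8 measured adipocyte markers was 11.75 to 12.56 over the arrays. The median of 10 skeletal muscle markers was 9.32, 11.79 and 4.5 in AFO pools 1, 2 and 3, against 4.91, 9.22 and 5.10 in control pools 1, 2 and 3. The median of 9 B cell markers was 7.18 in AFO pool 2 and 6.56 in control pool 2, against 4.73 to 4.98 elsewhere. Tcf21, a transcription factor of visceral fat progenitors in mice, read 7.91, 2.64 and 8.05 in AFO pools 1, 2 and 3, against 7.89, 2.58 and 8.09 in control pools 1, 2 and 3. The labels give all 6 arrays the same depot, and whether the pool 2 tissue came from another depot was not tested. Each pool 2 difference below is read with that limit. The numbers of genes called are given with and without the pool 2 arrays, as are the differences of Hoxa4, Hoxb5, Hoxb6, Hoxc10, Emx2 and Fto. Other genotype differences are from all 6 arrays unless stated.

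Of the 33 Hox genes, 17 had a mean level at or above 5.22, the 40th percentile of all probe sets with 1 gene, against 68.8% of all genes. Among the posterior genes, Hoxa10, Hoxa11, Hoxa13, Hoxb9, Hoxb13, Hoxc13 and Hoxd10 to Hoxd13 all had means below it. Probes differ in how brightly they bind, so a mean below this value does not show that a gene is expressed less than another, and the value serves here only to mark dim probe sets.

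**Figure D1:**
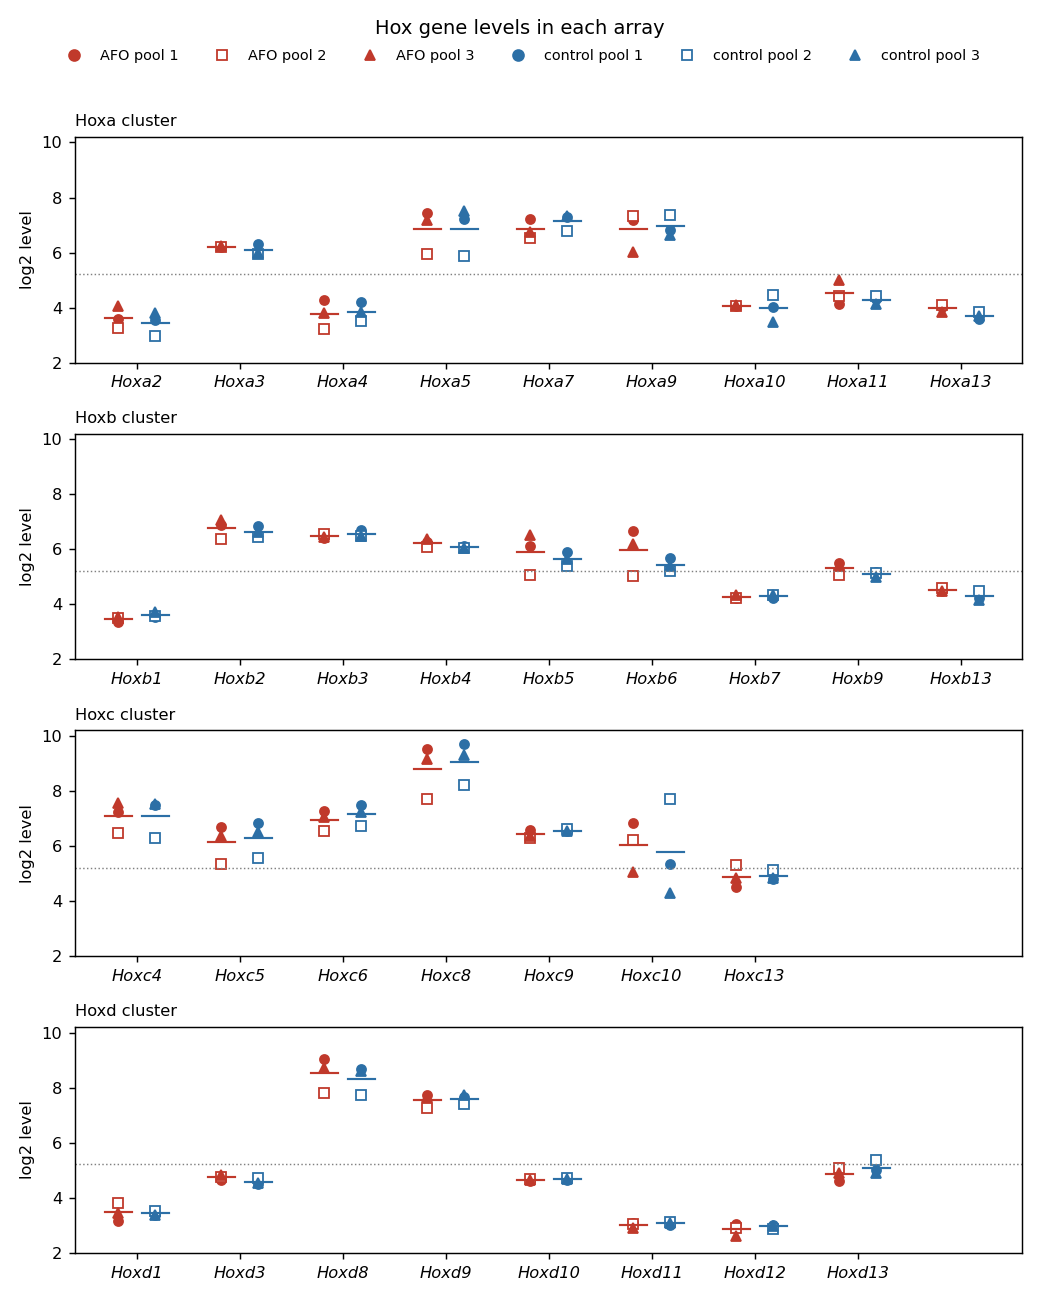
Log2 level (y axis) of each Hox gene (x axis, by paralog number) in the 3 AFO arrays (red, left) and 3 control arrays (blue, right), with pool 1 as circles, pool 2 as open squares and pool 3 as triangles. Short lines are genotype means, and the dotted line marks 5.22; pool 2 squares lie lowest in Hoxa5, Hoxc4, Hoxc5, Hoxc6, Hoxc8 and Hoxd8.

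The question of the design is whether AFO fat differs from control fat. No Hox gene passed the limma test, with 0 of 33 at an adjusted p under 0.05. Over all 18193 genes 0 passed as well, which is 0% of those tested. With pool number as a block 0 Hox genes passed, against 0.0110% of all genes, and without AFO pool 2 again 0, against 0.429%. Without both pool 2 arrays 0 Hox genes passed, against 0.890%, and with the block in addition Hoxb6 and Hoxc10 did, against 1.80%. At an unadjusted p under 0.05 there were 0 Hox genes and 237 genes in all (1.30%). All 33 adjusted p-values were 1, and 15 Hox genes were higher and 18 lower in AFO fat. The median log2 difference (AFO minus control) was -0.0032 for the Hox genes and -0.0095 for all genes. The sizes ran up to 0.54 for Hoxb6, and the 95% intervals of single genes reached from -1.87 to 2.38 in Hoxc10. In this unpaired fit, the intervals of the most variable members thus did not exclude differences of more than 1 log2 unit. Intervals with the block are not given here.

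Hoxa13, a gene of the distal limb and the urogenital tract, had the smallest unadjusted p of the Hox genes. It read 4.02, 4.09 and 3.84 in AFO pools 1, 2 and 3, against 3.60, 3.83 and 3.69 in control pools 1, 2 and 3. The difference was 0.27 with a standard error of 0.12 (limma unadjusted p = 0.0587). It was the 1 Hox gene of 33 whose AFO values all lay above the control values, with AFO pool 3 and control pool 2 nearly equal, where 2.26% of all genes did so. No Hox gene had all its AFO values below the control values, against 1.75% of all genes. Its level lay below the 40th percentile in all 6 arrays.

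AFO and control arrays of the same pool number come from separate RNA pools, and what a number shares is not stated. Differences within a pool number are thus not known to be matched. Within pool numbers, AFO minus control was above 0 in 3 of 3 for 6 Hox genes, which is 18.2% of the 33 against 10.5% of all genes. They were Hoxa2, Hoxa13, Hoxb4, Hoxb13, Hoxd3 and Hoxd8. AFO minus control was below 0 in 3 of 3 for another 8, which is 24.2% against 12.7% of all genes. These were Hoxa7, Hoxb1, Hoxb7, Hoxc5, Hoxc6, Hoxc8, Hoxd10 and Hoxd13. These counts take the sign whatever the size. Hoxb7 ran only from -0.10 to -0.0029 and Hoxd10 from -0.044 to -0.0032. Other probe sets changed sign in Hoxc5 (0.24 in pool 3), Hoxc6 (0.11 in pool 2), Hoxd13 (0.12 in pool 3) and Hoxb4 (-0.29 in pool 2). The remaining probe sets of Hoxc5, Hoxc6 and Hoxd8 kept their sign in each pool number. Hoxb13, the most posterior gene of its cluster, read 4.47, 4.61 and 4.49 in AFO pools 1, 2 and 3, against 4.22, 4.49 and 4.17 in control pools 1, 2 and 3, a difference of 0.23 (SE 0.13). Hoxd3, an anterior gene, differed by 0.15 (SE 0.13). Hoxa7, a gene of the thoracic region, differed by -0.29 (SE 0.24), and Hoxd13, known for its part in digit formation, by -0.25 (SE 0.19).

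**Figure D2:**
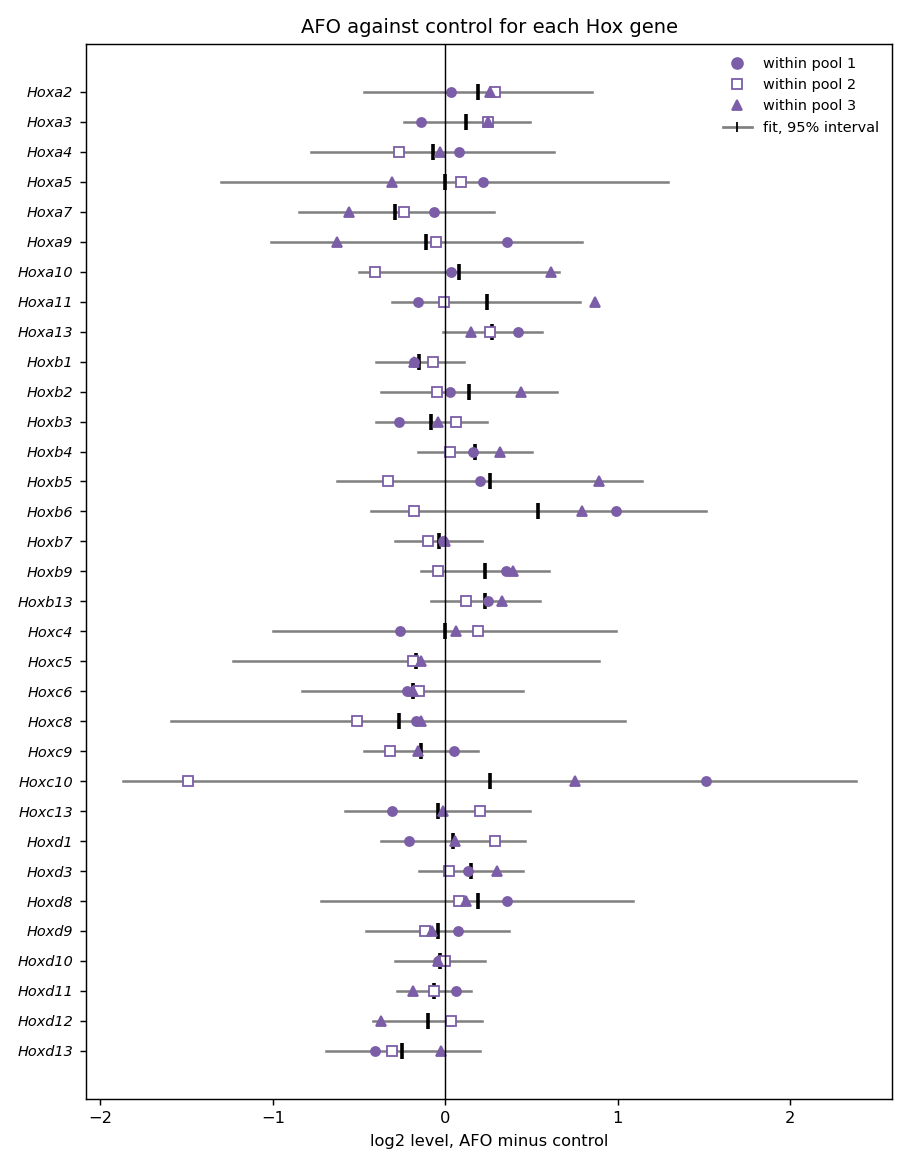
Difference in log2 level, AFO minus control (x axis), for each Hox gene (y axis). Black marks are the fitted differences and grey lines their 95% intervals, which all include 0. Purple symbols are AFO minus control of arrays with the same pool number, 1 (circles), 2 (open squares) and 3 (triangles). In Hoxc10 they run from -1.49 to 1.51.

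By cluster, the Hoxc genes leaned lower, with 6 of 7 below 0 and a median difference of -0.14, and the Hoxb genes higher, with 6 of 9 above 0 and a median of 0.17. The Hoxa and Hoxd medians were 0.081 and -0.036, and over all genes 47.3% were above 0. The Hoxc median turned to 0.16 when AFO pool 2 was left out and was -0.41 without control pool 2. It was -0.084 with the mean of probe sets and -0.048 when probe sets marked as less specific (_x_at or _s_at) were avoided. The Hoxb median ran from -0.0043 to 0.25 with each array left out and was 0.029 with the filter at the 60th percentile. The Hoxa median turned to -0.055 and -0.11 with the filters at the 40th and 60th percentiles and to -0.065 with array weights. Within pool numbers 1, 2 and 3 the cluster medians were 0.036, -0.0091 and 0.15 for Hoxa and 0.16, -0.049 and 0.33 for Hoxb. They were -0.17, -0.19 and -0.14 for Hoxc, and 0.044, 0.0080 and -0.035 for Hoxd. Hoxc6, a gene of the thoracic region, lay below control within each pool number. It read 7.27, 6.55 and 7.05 in AFO pools 1, 2 and 3, against 7.49, 6.71 and 7.25 in control pools 1, 2 and 3. Its difference of -0.19 had a standard error of 0.27. A second Hoxc6 probe set of nearly equal mean gave smaller differences within pool numbers 1, 2 and 3, at -0.044, -0.04 and -0.06. The third gave -0.15, 0.11 and -0.0069. Hoxc9, a gene of the thoracic region and of motor neurons, differed by -0.14 (SE 0.14).

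The larger feature of the Hox genes lay between pools and not between genotypes. Of the 33 genes, 11 ranged over at least 1 log2 unit across the 6 arrays, against 16.1% of all genes, and the median range was 0.78 for the Hox genes and 0.54 for all genes. In 12 Hox genes both pool 2 arrays lay below the other 4, where 24.3% of all genes did so, and in 5 both lay above, where 20.0% did so. Among the 17 Hox genes above the 40th percentile these counts were 10 and 1, where all genes above it had 32.6% and 17.0%. Pool 2 is a number in the labels and not a group of the study, so these counts are a description and no test was made of them. Omission of the pool 2 arrays removes the pattern by construction.

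The position of these genes in the clusters was not even. Of 12 genes of paralog groups 4 to 8, 9 had both pool 2 arrays below the other 4, namely Hoxa4, Hoxa5, Hoxb5, Hoxb6, Hoxc4, Hoxc5, Hoxc6, Hoxc8 and Hoxd8. In 11 of the 12 pool 2 was lower than the mean of pools 1 and 3 in both genotypes. That held for 38.7% of all genes and for 6253 of the 12513 genes above the 40th percentile. The exception among the 12 was Hoxb7, which varied by only 0.11 over the arrays. Of 14 genes of groups 9 to 13, 1 lay below, Hoxd9, and 4 lay above, Hoxa9, Hoxc13, Hoxd10 and Hoxd13. Of 7 genes of groups 1 to 3, Hoxa2 and Hoxb2 lay below and Hoxd1 above. The division into groups 1 to 3, 4 to 8 and 9 to 13 follows common usage and was made with the values known. In groups 4 to 8, 10 of the 12 genes lay above the 40th percentile, against 4 of the 14 in groups 9 to 13. Of those 10, all but Hoxa7 and Hoxb4 had both pool 2 arrays below the other 4. Of those 4 in groups 9 to 13, Hoxd9 lay below, Hoxa9 above, and Hoxc9 and Hoxc10 neither. Low pool 2 values were more common among bright genes in general. The parts of position and of brightness of the probe sets in these counts were not tested.

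**Figure D3:**
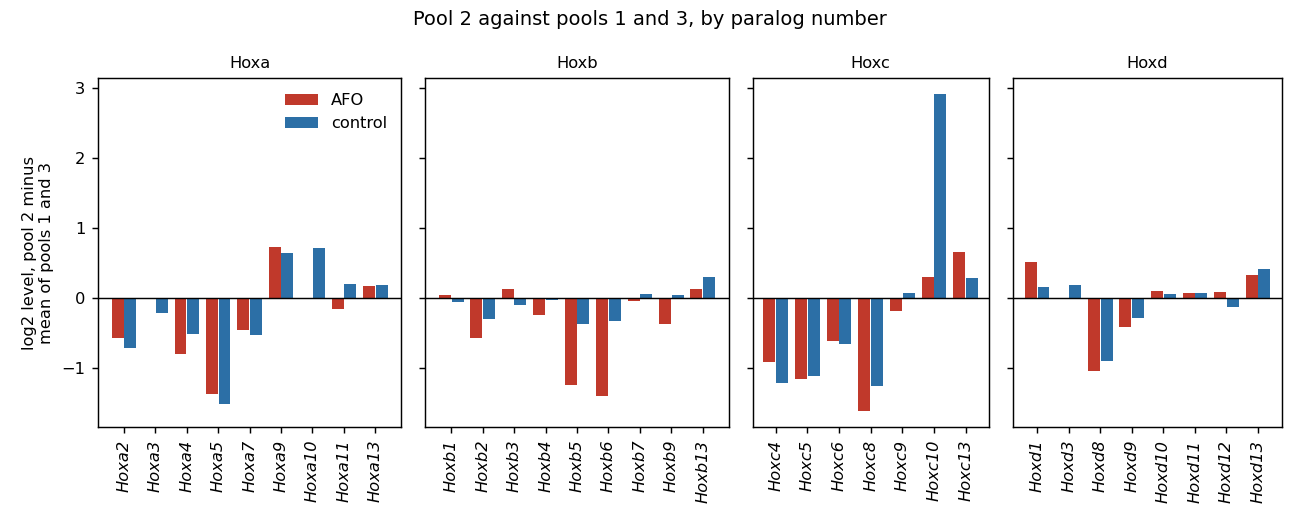
Log2 level of pool 2 minus the mean of pools 1 and 3 of the same genotype (y axis) for each Hox gene in order of paralog number (x axis), in AFO (red, left) and control (blue, right). Bars of 11 of the 12 genes of groups 4 to 8 point down in both genotypes, the exception being Hoxb7, and reach -1.51 in Hoxa5 and -1.62 in Hoxc8, while Hoxa9, Hoxc13 and Hoxd13 point up and Hoxc10 reaches 2.91 in control fat.

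In the Hoxa cluster, on mouse chromosome 6, Hoxa5 differed most between pools. Hoxa5 patterns the region of the neck and upper chest and is needed for lung development in mice. It read 7.44, 5.95 and 7.19 in AFO pools 1, 2 and 3, against 7.23, 5.86 and 7.51 in control pools 1, 2 and 3. The pool 2 arrays were the 2 lowest. Hoxa5 averaged 6.86 ± 0.80 across AFO pools and 6.86 ± 0.88 across control pools (SD, n = 3 each), a difference of -0.00045 (SE 0.54). Its neighbour Hoxa4 read 4.29, 3.24 and 3.80 in AFO pools 1, 2 and 3, against 4.21, 3.51 and 3.83 in control pools 1, 2 and 3, at a low level. Hoxa7 read 7.22, 6.53 and 6.76 in AFO pools 1, 2 and 3, against 7.28, 6.77 and 7.32 in control pools 1, 2 and 3, so AFO pool 3 lay beside the pool 2 arrays. Hoxa9, a gene of the lower trunk that is also active in blood progenitors, ran the other way. It read 7.17, 7.32 and 6.02 in AFO pools 1, 2 and 3, against 6.81, 7.37 and 6.65 in control pools 1, 2 and 3, with both pool 2 arrays highest. Over the 6 arrays Hoxa2, Hoxa3, Hoxa10 and Hoxa11 ranged over 1.10, 0.39, 1.0 and 0.87.

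In the Hoxc cluster, on chromosome 15, each of the 4 measured genes from Hoxc4 to Hoxc8 had both pool 2 arrays lowest. Hoxc8, which in mice restrains the brown fat programme of adipose progenitors, read 9.52, 7.72 and 9.16 in AFO pools 1, 2 and 3, against 9.69, 8.23 and 9.30 in control pools 1, 2 and 3. Pool 2 minus the mean of pools 1 and 3 was -1.62 in AFO fat and -1.26 in control fat. Hoxc8 averaged 8.80 ± 0.95 across AFO pools and 9.07 ± 0.75 across control pools (SD, n = 3 each), a difference of -0.27 (SE 0.55). Hoxc4 read 7.22, 6.48 and 7.57 in AFO pools 1, 2 and 3, against 7.49, 6.28 and 7.51 in control pools 1, 2 and 3. Hoxc5 read 6.68, 5.36 and 6.37 in AFO pools 1, 2 and 3, against 6.85, 5.56 and 6.51 in control pools 1, 2 and 3. In Hoxc4 and Hoxc5 the genotypes overlapped, and the pool 2 arrays were the 2 lowest. The drop ended at Hoxc9, which read 6.59, 6.29 and 6.37 in AFO pools 1, 2 and 3, against 6.54, 6.61 and 6.53 in control pools 1, 2 and 3.

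Hoxc10, a hindlimb-level gene that in mice is known as a suppressor of browning in subcutaneous fat, had the widest range of the Hox genes, at 3.43. It read 6.84, 6.23 and 5.04 in AFO pools 1, 2 and 3, against 5.33, 7.72 and 4.29 in control pools 1, 2 and 3. The highest array was control pool 2, and AFO pool 1 lay above AFO pool 2. Within pool numbers 1, 2 and 3 AFO minus control was 1.51, -1.49 and 0.75, and the fitted difference was 0.26 (SE 0.89). Hoxc10 averaged 6.04 ± 0.92 across AFO pools and 5.78 ± 1.76 across control pools (SD, n = 3 each). Without both pool 2 arrays the difference was 1.13 (limma adjusted p = 0.999). With both pool 2 arrays left out and pool number as a block, the difference was again 1.13 (limma adjusted p = 0.0130). In that fit 1.80% of all genes passed. It has 2 arrays in each genotype and 1 residual degree of freedom for each gene before moderation. It leaves out pool number 2, where the difference was -1.49. Over the alternatives the adjusted p of Hoxc10 ran from 0.0130 to 1. The median of 6 measured epididymis markers was 7.98 in AFO pool 1, against 4.51 to 4.83 in the other 5 arrays. Of the 6, Lcn5 and Spint4 did not share this rise. Lcn5 read 4.04 in AFO pool 1, against 3.72 to 4.23 in the other 5, and Spint4 2.98, against 2.68 to 2.86. The part of epididymis cells in the Hoxc10 values was not tested.

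In the Hoxb cluster, on chromosome 11, Hoxb5 and Hoxb6 were highest in AFO pools 1 and 3. Hoxb6, a gene of the thoracic mesoderm, read 6.67, 5.04 and 6.19 in AFO pools 1, 2 and 3, against 5.68, 5.21 and 5.40 in control pools 1, 2 and 3. Hoxb5, its neighbour, read 6.11, 5.08 and 6.53 in AFO pools 1, 2 and 3, against 5.91, 5.41 and 5.64 in control pools 1, 2 and 3. AFO pool 2 was the lowest array for both genes, so the genotypes overlapped. Hoxb6 averaged 5.97 ± 0.84 across AFO pools and 5.43 ± 0.24 across control pools (SD, n = 3 each). The fitted differences were 0.54 (SE 0.41) for Hoxb6 and 0.26 (SE 0.37) for Hoxb5. Without both pool 2 arrays they were 0.89 (limma adjusted p = 0.201) and 0.55 (limma adjusted p = 0.794). With pool number as a block in addition, Hoxb6 rose in AFO fat (limma adjusted p = 0.0262), and Hoxb5 did not pass (0.461 as limma adjusted p). Over the alternatives the adjusted p of Hoxb6 ran from 0.0262 to 1. That fit has 2 arrays in each genotype, 1 residual degree of freedom for each gene before moderation, and a pairing that the labels do not explain.

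The median of 12 epithelial genes, a list chosen with the values known, was 7.08, 4.80 and 6.65 in AFO pools 1, 2 and 3, against 6.25, 6.14 and 6.01 in control pools 1, 2 and 3. By this median AFO pools 1 and 3 were highest, as they were for Hoxb6. Of the list, Cdh1, Cldn3, Cldn4, Krt7 and Grhl2 did not have these arrays highest. Because the list was chosen with the values known, the shared order is a description only. Emx2, a homeodomain factor needed for the urogenital tract, read 6.37, 5.30 and 6.19 in AFO pools 1, 2 and 3, against 4.78, 5.35 and 4.70 in control pools 1, 2 and 3. Its difference of 1.01 (SE 0.32) had an unadjusted limma p of 0.0173 and an adjusted p of 1. Without the pool 2 arrays Emx2 rose by 1.54 (limma adjusted p = 0.00627), where 0.890% of all genes passed, and its adjusted p ran from 0.000305 to 1 over the alternatives. The part of epithelial cells in the Hoxb values was not tested.

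The other Hoxb genes varied less than Hoxb5 and Hoxb6. Hoxb2, a gene of the hindbrain, read 6.87, 6.38 and 7.06 in AFO pools 1, 2 and 3, against 6.84, 6.43 and 6.62 in control pools 1, 2 and 3, with pool 2 lowest. Hoxb9, a gene of the thoracic region, read 5.52, 5.08 and 5.39 in AFO pools 1, 2 and 3, against 5.17, 5.13 and 5.0 in control pools 1, 2 and 3. Its difference was 0.23 (SE 0.16), and AFO pool 2 lay among the control arrays. Hoxb1, Hoxb3, Hoxb4 and Hoxb7 ranged over 0.37, 0.27, 0.32 and 0.11 across the 6 arrays.

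In the Hoxd cluster, on chromosome 2, Hoxd8 was lowest in pool 2. It read 9.03, 7.81 and 8.71 in AFO pools 1, 2 and 3, against 8.67, 7.73 and 8.59 in control pools 1, 2 and 3. Hoxd9, the next gene towards the tail end, read 7.72, 7.28 and 7.65 in AFO pools 1, 2 and 3, against 7.65, 7.40 and 7.73 in control pools 1, 2 and 3. Hoxd8 averaged 8.52 ± 0.63 across AFO pools and 8.33 ± 0.52 across control pools (SD, n = 3 each), a difference of 0.19 (SE 0.38). The step of pool 2 was smaller in Hoxd9, at -0.41 in AFO and -0.29 in control fat, than in Hoxd8, at -1.05 and -0.90. Hoxd13 read 4.60, 5.07 and 4.89 in AFO pools 1, 2 and 3, against 5.0, 5.37 and 4.92 in control pools 1, 2 and 3, with each genotype highest in pool 2. Hoxd10, Hoxd11 and Hoxd12 ranged over 0.11, 0.21 and 0.46 and stayed below the 40th percentile, and the Hoxd10 arrays of pool 2 stood above the others by hundredths of a log2 unit only.

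Paralogs with the same number can be set side by side across clusters by their pool 2 step, given as AFO and then control. In group 5 it was -1.37 and -1.51 for Hoxa5, -1.24 and -0.37 for Hoxb5, and -1.16 and -1.12 for Hoxc5. In group 8 it was -1.62 and -1.26 for Hoxc8 and -1.05 and -0.90 for Hoxd8. In group 4 it was -0.80 and -0.51 for Hoxa4, -0.25 and -0.036 for Hoxb4, and -0.92 and -1.22 for Hoxc4, so Hoxb4 moved least of the 3. In group 9 the paralogs did not share a direction, at 0.73 and 0.64 for Hoxa9, -0.37 and 0.045 for Hoxb9, -0.19 and 0.077 for Hoxc9, and -0.41 and -0.29 for Hoxd9. In group 13 all 4 genes were higher in pool 2 in both genotypes, by 0.13 to 0.65, and all 4 had means below the 40th percentile. Over all genes 6561 of 18193 were higher in pool 2 in both genotypes, against 3562 of the 12513 above that percentile. The direction was thus more common among dim genes in general. A step of -1 or lower in both genotypes was seen in 3 members, Hoxa5, Hoxc5 and Hoxc8, which is 9.09% of the 33 against 1.86% of all genes, and 0 reached 1 or higher in both, against 1.75%.

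Of the 33 genes 11 had several probe sets, and these did not always tell the same story. The other probe sets of Hoxa5, Hoxa9, Hoxc6 and Hoxd8 gave the same order of pool 2 against the rest. For Hoxd8 the other probe set had a pool 2 step of -1.47 in AFO and -1.08 in control fat. For Hoxa5 the other probe set showed a smaller step, at -0.38 and -0.29. Hoxa3 had 4 probe sets, of which the one used was nearly flat (-0.014 and -0.21), while another with a lower mean had both pool 2 arrays lowest (-0.71 and -1.0). Hoxb3 likewise had a second probe set with steps of -0.41 and -0.69, against 0.12 and -0.10 in the one used. The second probe set of Hoxa4 was flat, with steps of 0.012 and -0.075, so the low pool 2 values of Hoxa4 rest on 1 probe set. The second probe set of Hoxd13 had steps of 0.014 and 0.38, and its pool 2 arrays did not both lie above the others. Of the 3 Hoxc5 probe sets 2 had both pool 2 arrays lowest and 1 did not. Which transcripts each probe set reads is not given in the sources used here.

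**Figure D4:**
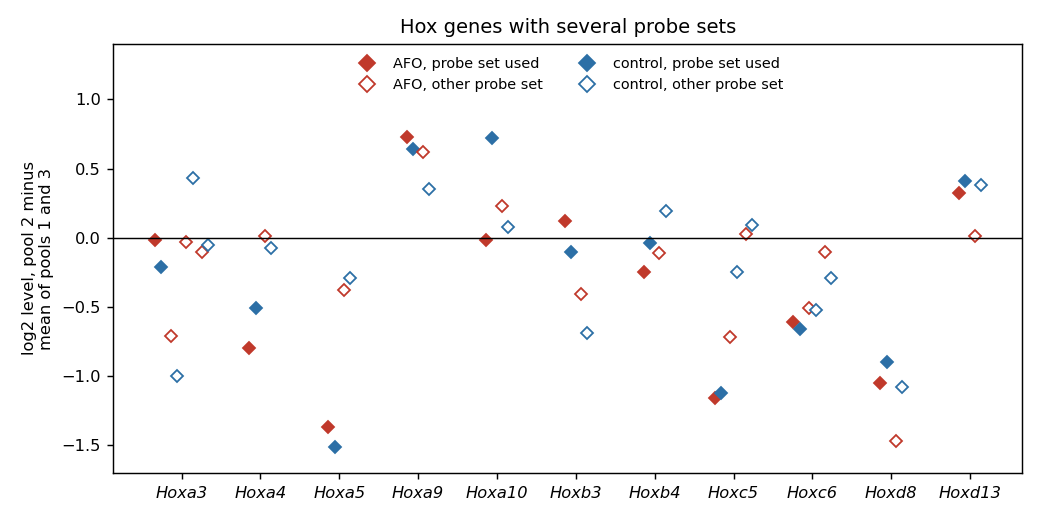
Log2 level of pool 2 minus the mean of pools 1 and 3 (y axis) for every probe set of the 11 Hox genes that have several (x axis), in AFO (red) and control (blue). Filled symbols are the probe sets used, and open symbols the others; the probe sets of Hoxa9 all lie above 0 and those of Hoxa5, Hoxc6 and Hoxd8 below, while those of Hoxa3 and Hoxb3 differ.

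The promoters of 4 genes that carry this contrast are shown, since Hoxa5, Hoxc4 and Hoxd8 were lowest and Hoxa9 highest in pool 2. Each window runs from 250 bases before to 50 bases after the annotated gene start in RefSeq (GRCm38.p6), read 5′ to 3′ on the strand of the gene. RefSeq windows were found for 19 of the 33 genes. Capitals mark CCAAT boxes, found as CCAAT or its reverse complement.
Hoxa5, chr6:52204538-52204837, minus strand: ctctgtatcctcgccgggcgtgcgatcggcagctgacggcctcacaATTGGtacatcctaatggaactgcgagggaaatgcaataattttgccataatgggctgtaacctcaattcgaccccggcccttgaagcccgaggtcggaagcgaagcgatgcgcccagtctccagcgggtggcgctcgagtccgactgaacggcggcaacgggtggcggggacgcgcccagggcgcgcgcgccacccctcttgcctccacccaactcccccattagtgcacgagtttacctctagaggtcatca
Hoxa9, chr6:52227321-52227620, minus strand: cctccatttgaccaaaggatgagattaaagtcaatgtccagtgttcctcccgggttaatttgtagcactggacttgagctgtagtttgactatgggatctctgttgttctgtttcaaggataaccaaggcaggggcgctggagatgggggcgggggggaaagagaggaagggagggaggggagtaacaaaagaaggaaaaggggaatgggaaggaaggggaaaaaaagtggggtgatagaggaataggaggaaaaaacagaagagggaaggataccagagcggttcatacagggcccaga
Hoxc4, chr15:103034145-103034444, plus strand: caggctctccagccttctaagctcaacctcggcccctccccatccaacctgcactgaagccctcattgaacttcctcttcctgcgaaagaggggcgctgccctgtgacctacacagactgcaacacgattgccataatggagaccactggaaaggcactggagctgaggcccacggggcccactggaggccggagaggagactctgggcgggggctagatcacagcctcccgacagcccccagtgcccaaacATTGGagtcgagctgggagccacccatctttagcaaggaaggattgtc
Hoxd8, chr2:74704365-74704664, plus strand: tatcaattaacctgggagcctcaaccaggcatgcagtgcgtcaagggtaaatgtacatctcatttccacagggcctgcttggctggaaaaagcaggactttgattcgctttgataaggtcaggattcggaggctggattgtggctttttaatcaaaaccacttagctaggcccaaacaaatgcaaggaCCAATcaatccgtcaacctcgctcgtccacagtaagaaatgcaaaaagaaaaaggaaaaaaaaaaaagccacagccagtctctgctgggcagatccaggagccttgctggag

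Each of the 3 windows of genes low in pool 2 held 1 CCAAT box, and the Hoxa9 window held 0. The motif stood in 37.4% of 32851 windows of the same length over the genome and in 15 of 24 Hox windows, so its presence in these 3 is a description of the letters only. TATA boxes (TATAAA, 13.6% of windows) and the site bound by Pbx and Hox proteins together (TGATTNAT, 3.22% of windows) were searched on both strands in the same way, and these letters are in none of the 4 windows. The Hoxa5 window held 29 CG dinucleotides, against a median of 7 over all windows, and those of Hoxc4, Hoxd8 and Hoxa9 held 9, 6 and 4.

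Hox proteins bind DNA with cofactors of the Pbx, Meis and Pknox families. Of 9 measured cofactor genes 0 passed in AFO fat against control fat, with 5 higher and 4 lower and a median difference of 0.033. Pknox2 differed by 0.33 (SE 0.18) and Meis2 by -0.49 (SE 0.39), the smallest p-values of the list. Both pool 2 arrays lay below the other 4 in 4 of the 9, where 24.3% of all genes did so. Among these, Meis1 read 6.59, 4.60 and 6.55 in AFO pools 1, 2 and 3, against 6.67, 4.96 and 6.61 in control pools 1, 2 and 3, so the pool 2 arrays of the cofactor were low where those of the central Hox genes were low. Meis1 was named after its values were seen.

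Polycomb complexes keep Hox genes silent and trithorax complexes keep them active. Of 22 measured genes of these complexes 0 passed, 11 were higher and 11 lower, and the median difference was -0.00017. Ezh2, the Polycomb methyltransferase, differed by 0.25 (SE 0.20) and Cbx8, a Polycomb reader, by -0.22 (SE 0.17). In this list 7 of 22 had both pool 2 arrays below and 3 above the other 4, near the 24.3% and 20.0% of all genes. Of 13 measured genes transcribed within or beside the Hox clusters 0 passed, with 7 higher and 6 lower. In this list 7 of 13 had both pool 2 arrays below and 1 above the other 4, against 24.3% and 20.0% of all genes. Evx1, a homeobox gene beyond Hoxa13, differed by 0.29 (SE 0.15) and the antisense transcript Hoxa11os by -0.12 (SE 0.089). Hoxd3os1, an antisense transcript of the Hoxd cluster, read 7.02, 5.91 and 7.21 in AFO pools 1, 2 and 3, against 7.0, 6.06 and 7.23 in control pools 1, 2 and 3, low in pool 2 as Hoxd8 was. It was named after its values were seen.

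Retinoic acid and Cdx factors set Hox expression in the embryo. Of 14 measured genes of these inputs 0 passed, with 9 higher and 5 lower in AFO fat and a median difference of 0.023. Cdx1 differed by -0.22 (SE 0.13) and Nr6a1, a repressor active in trunk development, by 0.27 (SE 0.28). Aldh1a2, which makes retinoic acid, had a pool 2 step of -2.50 in AFO and -2.05 in control fat, and Cyp26b1, which breaks it down, one of 0.79 and 0.76. Of 39 measured transcription factors of body position outside the clusters 0 passed, with 15 higher and 24 lower. After Emx2, the smallest p belonged to En1, a limb and midbrain factor, at 0.35 (SE 0.15) and a level below the 40th percentile. In this list 11 of 39 genes had both pool 2 arrays below and 11 above the other 4, near the 24.3% and 20.0% of all genes. Tbx15, a factor of the trunk and limb that marks subcutaneous fat in mice, read 5.55, 7.65 and 5.29 in AFO pools 1, 2 and 3, against 4.91, 6.97 and 4.77 in control pools 1, 2 and 3. Shox2, a limb factor, read 4.77, 7.03 and 4.84 in AFO pools 1, 2 and 3, against 4.35, 7.75 and 4.99 in control pools 1, 2 and 3. Wt1, a factor of the mesothelium and visceral fat, read 7.57, 4.38 and 7.81 in AFO pools 1, 2 and 3, against 7.92, 4.55 and 7.78 in control pools 1, 2 and 3. Pool 2 was thus high for Tbx15 and Shox2 and low for Wt1 in both genotypes. Tcf21, Aldh1a2, Cyp26b1, Tbx15, Shox2 and Wt1 were named after their values were seen. The part of mesothelial, muscle, lymphoid, vessel or stromal cells, or of a different depot, in the Hox values of pool 2 was not tested.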

How the data were processed

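Total RNA from 6 pools of mouse white fat was labelled with a 3' in vitro transcription kit and hybridised to Affymetrix arrays, as the label protocols record. The authors deposited log2 levels made with RMA in Affymetrix Expression Console 1.4, per the submitters' processing notes. RMA equalises the arrays (medians 5.35 to 5.43), so a shift shared by most genes is not visible, and differences of dim genes can be understated. The genome build is not given in the sources used here. Coordinates printed are those of RefSeq (GRCm38.p6).

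Of 45101 probe sets, 34945 had 1 gene symbol in the platform annotation, 932 had several and 9160 were not listed. The probe set with the highest mean stood for a gene, without a filter on level. AFO minus control was fitted with limma 3.58.1 (R 4.3.3; unpaired, eBayes with trend, Benjamini-Hochberg adjustment over 18193 genes, threshold 0.05). The fit was tested on simulated data. Replicates are RNA pools described as independent in the series' design. Groups came from the labels and pool numbers from the sample descriptions. In the unpaired fit, p-values set the genotype difference against the spread between pools of the same genotype. With the block they set it against the spread left after pool number. Deviations from the genotype means correlated across genes at 0.524, 0.766 and 0.519 for equal numbers 1, 2 and 3, which met the rule for pairing (each above 0.1), although AFO 1 with control 3 (0.359) and AFO 3 with control 1 (0.407) exceeded it as well, and what a number shares is not stated. Blocked values stand beside the results whose call they change.

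The members and lists were chosen with earlier results of these data known. Named genes are Fto, from each cluster the 2 Hox genes with the smallest p and the 3 with the largest pool 2 step of equal sign in both genotypes, and from each other list the 2 with the smallest p. Other Hox genes are described as members, and other genes named are markers or are said in the text to be chosen with their values seen. Marker lists for endothelial, macrophage, T cell, smooth muscle and progenitor cells had medians, AFO minus control, of -0.16, -0.10, -0.078, -0.13 and 0.10. Their median pool 2 steps in AFO fat were, in that order, -0.62, 0.22, 2.99, -0.80 and -0.49. In control fat they were -0.68, -0.25, 2.71, -0.94 and -0.48. These lists thus differed between pools as well, macrophages least.

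Alternatives were 2 filters on level, quantile normalisation, median centring, other choices of probe set, other empirical Bayes settings, array weights, the block, a threshold of 0.1, each array left out, and both pool 2 arrays left out.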

Additional observations from a re-analysis of the deposited data

How the results depend on the processing

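With pool number as a replicate block 2 genes passed and 0 Hox genes. Leaving out single arrays gave 0 to 78 genes, the 78 without AFO pool 2, and 0 Hox genes in each case. Without both pool 2 arrays 162 genes passed and 0 Hox genes, and with the block in addition 327 genes and 2 Hox genes (Hoxb6 and Hoxc10). The block changed no other Hox call. With single arrays left out, the median Hox difference ran from -0.059 to 0.15, and the cluster medians from -0.0019 to 0.19 (Hoxa), -0.0043 to 0.25 (Hoxb), -0.41 to 0.16 (Hoxc) and -0.082 to 0.0066 (Hoxd). The Hoxd median was 0.071 under both filters, which leave 2 Hoxd genes. The Hoxa median (0.081) was -0.055 and -0.11 under the filters at the 40th and 60th percentiles and -0.065 with array weights, and the Hoxb median (0.17) was 0.029 at the 60th percentile. The filter at the 40th percentile left 1 Hox gene with both pool 2 arrays above the others in place of 5, and that at the 60th percentile left 7 below in place of 12 and 1 above, since dim genes drop out. Differences that changed sign did so with small or variable values: Hoxa5 was 0.028 with quantile normalisation and 0.056 with the mean of probe sets, Hoxa4 was 0.014 with the mean of probe sets and 0.024 without pool 2, with or without the block, and Fto was 0.19 in those fits. The cause was not tested. With single arrays left out the ranges that crossed 0 were -0.31 to 0.078 (Fto), -0.50 to 0.46 (Hoxa5), -0.33 to 0.19 (Hoxa4), -0.35 to 0.30 (Hoxa9), -0.0043 to 0.33 (Hoxb2), -0.057 to 0.67 (Hoxb5), -0.54 to 0.22 (Hoxc5), -0.41 to 0.012 (Hoxc6), -0.69 to 0.27 (Hoxc8), -0.49 to 1.23 (Hoxc10), -0.11 to 0.54 (Hoxd8) and -0.14 to 0.093 (Hoxd9). Signal limits the dim members, since 17 of 33 Hox genes reached the 40th percentile of level and differences of the rest may be compressed.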
